A study of Homo sapiens with 16 samples.

Results

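Annexins are proteins that bind phospholipid membranes when calcium rises, through a conserved core of repeats, and differ from one another mainly in the tail ahead of that core. They act in membrane repair, vesicle traffic and the handling of dying cells, and several form complexes with small S100 proteins. In brain, annexin A1 limits inflammation through formyl peptide receptors, annexin A2 brings plasminogen and its activators together on the cell surface, and annexin A5 binds the phosphatidylserine that dying cells expose. The genes described here are 8 members of the human family, ANXA1, ANXA2, ANXA3, ANXA4, ANXA5, ANXA6, ANXA7 and ANXA11, found by symbol among the 60669 genes of each of the deposited tables. Another 5 family genes, ANXA8, ANXA8L1, ANXA9, ANXA10 and ANXA13, were not on the list.

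The cells were HMC3, a human line labelled as microglial, either wild type or labelled METTL3 KO. The gene METTL3 encodes the catalytic subunit of the complex that adds the m6A mark to adenosines of RNA. The labels name no treatment for any of the 16 samples. Of these, 5 wild-type and 5 knockout-labelled libraries were made from polyadenylated RNA with Smart-seq2, and 3 and 3 were made with a directional kit after depletion of ribosomal RNA, from 100 ng of RNA. The labels do not say how the knockout was made, whether it is 1 clone, or whether replicates were separate cultures, so p-values measure only the spread between these libraries, which may be technical. For the poly(A) libraries the deposited table holds 1 comparison and no single library. For the rRNA-depleted libraries it holds TPM, the share of each gene among a library's transcripts after division by gene length.

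The members were chosen by symbol, with the measured changes of both tables known, and ANXA3 was already known to be among the genes that fell most in the poly(A) table. Levels, changes and adjusted p-values of the 8 members are therefore given as a description of these libraries and not as independent tests.

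Several facts of the whole series bear on the values below. Gene lengths turned TPM back into reads, and the rRNA-depleted libraries held 266157 to 487272 reads in the wild type and 512627 to 1267171 with the knockout label. Knockout-labelled libraries 1 and 2 differed by no more than sampling noise (chi-square of 1.02 per degree of freedom over 10117 genes, against 1.16 to 1.54 for other pairs of 1 label), so they were averaged and counted as 1 sample. METTL3 mRNA was at 31.2, 31.6 and 25.4 TPM in the wild type and at 39.2, 39.96 and 42.7 TPM under the knockout label, so that no knockout-labelled library was below a wild-type one. The log2 difference of METTL3 was 0.48 (limma adjusted p 0.106), it was -0.37 with the trend with GC content removed, and it was 0.09 (adjusted p 0.654) in the authors' deposited table. The libraries are therefore called knockout-labelled, since mRNA does not check that label. Of 13 microglial markers, 10 had a TPM of 0 in every rRNA-depleted library, among them AIF1, CX3CR1, P2RY12, TMEM119, PTPRC and SPI1, and the 13 summed to 0 to 6.47 TPM in the wild type and 0.532 to 5.24 TPM with the knockout label. The summed level of 8 mesenchymal markers was 10818 to 13274 TPM in the wild type and 3388 to 3554 TPM with the knockout label, with LUM at 0. COL3A1 and DCN had means of 0.693 and 0.155 TPM in the wild type and were at 0 with the knockout label. The markers did not move together: COL1A1 had means of 10669 and 819 TPM in that order, whereas VIM had 477 and 2242 TPM and THY1 had 127 and 264 TPM. For 4 epithelial markers, led by KRT18, the sums were 730 to 804 TPM and 334 to 340 TPM. KRT18 had means of 719 and 323 TPM and KRT8 of 53.7 and 12.6 TPM, in the same order. EPCAM and CDH1 had means below 1 TPM under both labels. The part of these markers in the results below was not tested. In bulk RNA, fewer cells of a type and less RNA per cell cannot be told apart. The median log2 change of all genes tested was 0.41, and it fell to 0.11 when libraries were rescaled by median ratios. That rescaling moved the share of calls that were higher from 64.8% to 48.6%. Removing the GC trend took the median to 0.04, so that step rescaled the libraries too.

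Sequences that bear on the comparison come first. METTL3 methylates adenosine mainly within a short consensus of which GGACT is a common form, so this motif was counted in the longest coding sequence of each gene in GENCODE 29, on the sense strand. Of the 8 coding sequences, 6 held it, and ANXA3 and ANXA7 held none. In all, 73.8% of human coding sequences of at least 300 bases held it. ANXA6 had 6 matches, or 2.97 per kb, more than 94.6% of coding genes, ANXA11 had 2, and the others had 1 each. Other forms of the consensus were not counted, and untranslated regions were not searched. A coding sequence without GGACT therefore does not mean a transcript without sites. The sites of the 4 genes with 1 match are printed in 5′ to 3′ direction as DNA, with the motif in capitals. They are the places where GGACT occurs in these coding sequences. Whether any of them carries m6A was not measured here.
ANXA1, coding bases 570 to 574: tgaccgatctgaGGACTttggtgtgaatg
ANXA2, coding bases 429 to 433: gggaaccgacgaGGACTctctcattgaga
ANXA4, coding bases 192 to 196: caccatcggcagGGACTtgatagacgacc
ANXA5, coding bases 918 to 922: agatacatctggGGACTataagaaagctc

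All 8 members had an entry among RefSeq promoters (GRCh38.p14). The 250 bases before each start were searched on both strands for the SP1 core GGGCGG, the TATA box as TATAAA, the AP-1 site as TGANTCA, the CRE as TGACGTCA, the CCAAT box by those letters, the E-box as CACGTG and the core of the interferon-stimulated response element. The 3 copies of GGGCGG before ANXA2 overlap one another. Of all promoters, 42.6% held GGGCGG, 10.7% TATAAA, 6.57% TGANTCA, 32.0% CCAAT and 6.34% CACGTG. At the first listed start, ANXA3 held no match to any of the 7 motifs. ANXA5 and ANXA11 held 1 each there, a GGGCGG and a TATAAA in that order. The interferon response core and the CRE were found at no listed start of the 8 genes, against 3.02% and 1.65% of all 35116 promoters. TATAAA on the gene's own strand lay between 40 and 11 bases before the first start in ANXA1 and ANXA2 and in none of the other 6, against 2.34% of all promoters. The windows of these 2 genes and of ANXA3 and ANXA5 are shown for that contrast, with TATAAA in capitals. Each of the 4 windows lies inside an exon of a longer transcript in GENCODE 29, so none is purely upstream sequence.
ANXA1, chr9:73151825-73151854, plus strand: ttaaaatccTATAAAatcagaagcccaagt
ANXA2, chr15:60397997-60398026, minus strand: tgtggcgggTATAAAagccccacccaggcc
ANXA3, chr4:78551730-78551759, plus strand: gcaggaggaaggggtgcggtcgcgatccgg
ANXA5, chr4:121696991-121697020, minus strand: gggccggggtggggccgctggcgtttccgt

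In the rRNA-depleted libraries the 8 annexins together summed to 597 TPM (SD 34.4, n = 3) in wild-type cells and to 1502 TPM (SD 98.2, n = 2) under the knockout label, a ratio of 2.52. All 8 members reached 1 TPM in 3 or more libraries, the filter used. Over all 14789 genes tested, limma gave 4 of the 8 an adjusted p under 0.05, all in the higher direction: ANXA1, ANXA2, ANXA5 and ANXA6. Among all genes 35.3% passed, and 22.9% did so in the higher direction. None was lower at that threshold, against 12.4% of all genes. None was lower at an unadjusted p under 0.05, or at an adjusted p under 0.05 with voom on reads. The libraries of the labels did not overlap for 4 members, all higher, against 58.4% of all genes in either direction and 38.4% in the higher one. The median log2 change of the 8 was 0.79, against 0.41 over all genes tested.

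**Figure D1:**
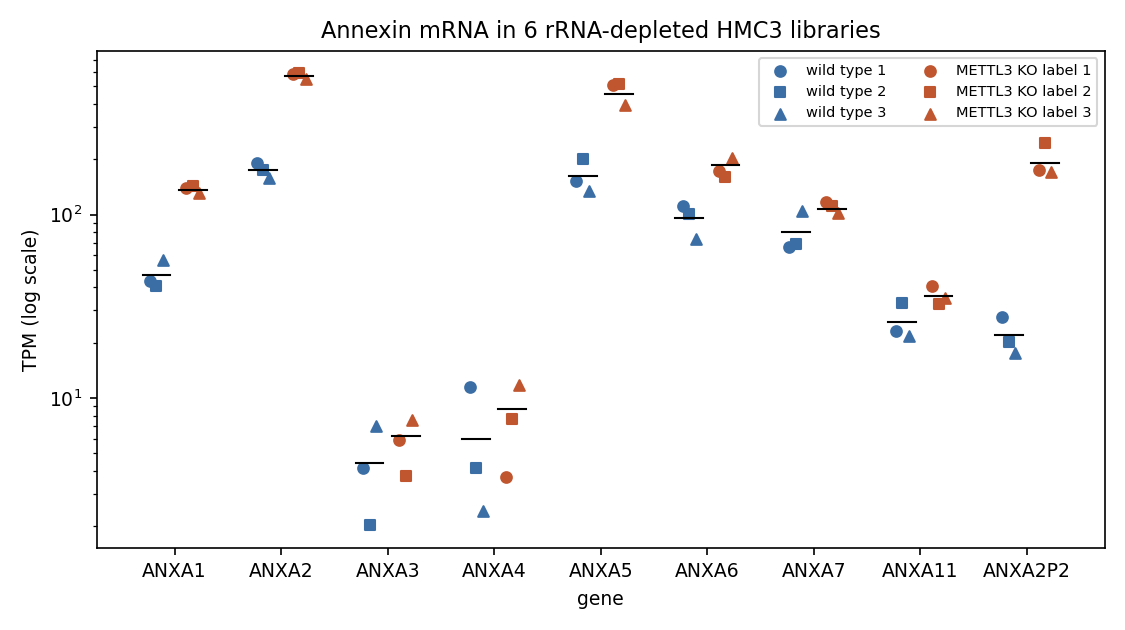
TPM of each of the 8 annexins and of the pseudogene ANXA2P2 in the 6 rRNA-depleted libraries, on a log axis; blue symbols are the wild-type libraries, orange symbols the libraries labelled METTL3 KO, marker shape is the library number, and black bars are group means with knockout-labelled libraries 1 and 2 counted as 1. ANXA1, ANXA2, ANXA5, ANXA6 and ANXA2P2 have no overlap between labels, and ANXA3 and ANXA4 lie near the bottom and overlap.

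ANXA2 (ENSG00000182718; chromosome 15, 60347134 to 60402883, minus strand, GENCODE 29 on GRCh38) encodes the annexin that pairs with S100A10 at the plasma membrane. Wild-type libraries 1 to 3 had 192, 176 and 159 TPM of it, and knockout-labelled libraries 1 to 3 had 585, 589 and 549 TPM. Every knockout-labelled value was above every wild-type value, and the spread within each label was small beside the gap. The log2 difference was 1.69 (SE 0.12, limma adjusted p 0.0013), from 150 to 239 reads in each wild-type library and 750 to 1897 reads per knockout-labelled library. ANXA2 had the most reads of the 8 and kept an adjusted p under 0.05 under each alternative run, with log2 differences from 0.91 to 1.76. The 0.91 was obtained with the trend between change and GC content removed.

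ANXA5 (ENSG00000164111; chromosome 4, 121667955 to 121697113, minus strand), whose protein is the usual probe for phosphatidylserine on dying cells, was at 152, 201 and 134 TPM in the wild type. With the knockout label it was at 511, 517 and 394 TPM. The groups did not overlap, and knockout-labelled library 3 was the lowest of its label. This is a log2 difference of 1.49 (SE 0.22, limma adjusted p 0.0068), or 0.82 (adjusted p 0.0494) with the GC trend removed.

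ANXA1 (ENSG00000135046; chromosome 9, 73151757 to 73170393, plus strand), the glucocorticoid-regulated anti-inflammatory member, was at 43.5, 40.8 and 56.4 TPM in the wild type. In the knockout-labelled libraries it was at 140, 142 and 130 TPM. The lowest knockout-labelled library was thus well above the highest wild-type one, on 18 to 43 reads per wild-type library. On the log2 scale the difference was 1.52 (SE 0.18, limma adjusted p 0.0041). With the GC trend removed it was 0.50 and the adjusted p was 0.0761, which ended the call.

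ANXA6 (ENSG00000197043; chromosome 5, 151100712 to 151157882, minus strand) carries a duplicated annexin core. Its levels were 111, 101 and 73.9 TPM in the wild type and 174, 161 and 203 TPM with the knockout label. The groups did not overlap, but the nearest libraries were closer than for ANXA1, ANXA2 or ANXA5. ANXA6 thus differed by 0.97 on the log2 scale (SE 0.21, limma adjusted p 0.0215). Rescaling by median ratios gave 0.61 and an adjusted p of 0.0932. With the GC trend removed it was 0.98 (adjusted p 0.0274).

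Leaving out knockout-labelled library 3 left 1 knockout-labelled sample, assumed to vary like the wild type, and then ANXA2 was the 1 member past the threshold (adjusted p 0.021). ANXA1 had an adjusted p of 0.0571, ANXA5 0.0658 and ANXA6 0.181, with log2 differences of 1.58, 1.68 and 0.83. The calls over all genes fell from 5220 to 1663 in that fit.

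The remaining members did not pass. ANXA7 (ENSG00000138279; chromosome 10, 73375101 to 73414076, minus strand), also called synexin and known for promoting membrane fusion, was at 66.8, 68.7 and 105 TPM in the wild type and 117, 111 and 102 TPM with the knockout label. Wild-type library 3 reached into the range of the knockout label. The log2 difference was 0.45 (SE 0.23, 95% interval -0.13 to 1.04, limma adjusted p 0.186), and without wild-type library 3 it was 0.66 (adjusted p 0.0343).

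ANXA11 (ENSG00000122359; chromosome 10, 80150889 to 80205572, minus strand), a partner of S100A6 that can link RNA granules to lysosomes, was at 23.3, 32.8 and 21.8 TPM in the wild type and 40.9, 32.5 and 34.9 TPM with the knockout label. Wild-type library 2 overlapped the knockout label. The log2 difference was 0.47 (SE 0.24, 95% interval -0.14 to 1.08, limma adjusted p 0.189). Both ANXA7 and ANXA11 lay close to the median change of all genes.

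ANXA4 (ENSG00000196975; chromosome 2, 69644425 to 69827100, plus strand) and ANXA3 (ENSG00000138772; chromosome 4, 78551519 to 78610451, plus strand) were the scarce members. ANXA4, a calcium sensor of inner membranes, was at 11.4, 4.16 and 2.41 TPM in the wild type and 3.71, 7.71 and 11.7 TPM with the knockout label, on 4 to 28 reads. Its libraries were fully interleaved, with a log2 difference of 0.62 (SE 0.70, 95% interval -1.15 to 2.38, limma adjusted p 0.526). ANXA3 was at 4.15, 2.02 and 7.01 TPM in the wild type and 5.89, 3.74 and 7.56 TPM with the knockout label. These values rest on 3, 1 and 6 reads and on 9, 7 and 6 reads. The log2 difference of ANXA3 was 0.50 (SE 0.57, 95% interval -0.95 to 1.95, limma adjusted p 0.534).

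The 5 family genes off the list were at or near the floor. ANXA8, ANXA8L1 and ANXA13 had no reads in any rRNA-depleted library, ANXA10 had 1 read in 1 library, and ANXA9 had 2 reads in each of 2 libraries. With 0 reads, a level of as much as 3 reads cannot be told from none, or 1.66 to 6.27 TPM of ANXA8 across the libraries.

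The make-up of the annexin pool does not depend on a scaling factor applied to a whole library. It does depend on the gene lengths used for TPM, which place ANXA2 lower than a transcript length would. ANXA2 formed 31.8%, 28.1% and 28.4% of summed annexin TPM in the wild type and 37.1%, 37.6% and 38.3% with the knockout label, with no overlap. ANXA7 formed 11.1%, 10.96% and 18.7% in the wild type and 7.42%, 7.10% and 7.09% with the knockout label, again with no overlap. The share of ANXA11 was 4.33% ± 0.784 (SD, n = 3) in the wild type and 2.39% ± 0.0709 (SD, n = 2) with the knockout label. The other 5 shares overlapped between labels. ANXA1, for example, formed 6.52% to 10.1% in the wild type and 8.85% to 9.10% with the knockout label. The pool thus held relatively more ANXA2 and relatively less ANXA7 and ANXA11 under the knockout label. A share can fall without a fall in level. The means of ANXA7 were 80.04 and 108 TPM, wild type first, and those of ANXA11 were 25.97 and 35.8 TPM. The shares were not adjusted for GC content or for the split of reads between ANXA2 and ANXA2P2.

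**Figure D2:**
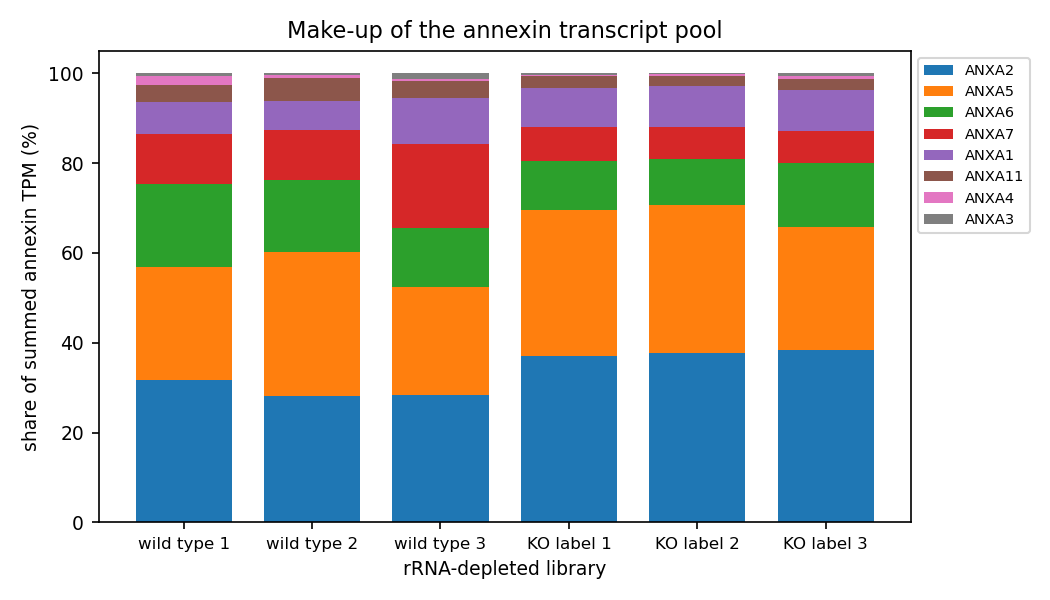
Share of each annexin in the summed annexin TPM of each rRNA-depleted library, in percent, stacked to the whole; colours are genes and bars are libraries. The ANXA2 segment lies between 28.1% and 31.8% in the wild-type bars and between 37.1% and 38.3% in the bars labelled METTL3 KO.

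Levels between members depend on the length used for TPM. The lengths that gave whole reads were the union of all annotated exons for 7 members, and for ANXA4 a length of 9946 bases, shorter than the union. For ANXA2 the union is 8824 bases, against 1444 bases for the transcript with its longest coding sequence, so TPM as deposited places ANXA2 lower than a transcript length would. By deposited TPM the wild-type order was ANXA2 (176 TPM), ANXA5 (162), ANXA6 (95.3), ANXA7 (80.04), ANXA1 (46.9), ANXA11 (25.97), ANXA4 (5.99) and ANXA3 (4.39). In that order ANXA2 and ANXA5 overlapped between libraries, as did ANXA6 and ANXA7, and ANXA4 and ANXA3. With deposited TPM rescaled to the transcript length, ANXA2 stood at 1072 and ANXA5 at 280, with no overlap between their wild-type libraries. Library totals were not recalculated, so these values are not TPM and serve only to compare the members. Changes between labels within a gene do not depend on this length except through the pseudocount.

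The poly(A) libraries gave another picture. For all 8 members an adjusted p was given in the authors' deposited table, and 2 had one under 0.05, both lower with the knockout label, against 19.9% of all genes in either direction and 10.3% in that one. No member was higher at that threshold in the authors' deposited table, which carries the column names of DESeq2, against 9.55% of all genes. At an unadjusted p under 0.05 it had 1 higher and 3 lower. The median log2 fold change of the 8 in the authors' deposited table was -0.10, against 0.02 over all genes with an adjusted p. That table does not name its numerator. A positive value is read here as higher in the knockout-labelled libraries, following the knockout in the table's name, and every poly(A) direction would turn if the wild type were the numerator.

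In the authors' deposited table the log2 fold change of ANXA3 was -1.98 (SE 0.15, adjusted p 4.53e-39), from a mean normalized count of 85.4, so its poly(A) level with the knockout label was 0.253 times that of the wild type. This is the largest change of the 8 in either table. Pooled over the reads of the rRNA-depleted libraries, the ratio for ANXA3 was 1.09 (95% exact interval 0.495 to 2.57, counting error only). The lower bound lies above the poly(A) ratio, but this interval leaves out the spread between libraries. With the GC trend removed the log2 difference of ANXA3 was -0.48, and with voom on reads -0.16. Whether the library types differ for ANXA3 was not tested, since the poly(A) table holds no single library.

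ANXA1 was the other member that fell in the authors' deposited table, at -0.42 on the log2 scale (SE 0.08, adjusted p 1.42e-06), or 0.749 times the wild-type level. It is the 1 member past the threshold in both library types, in opposite directions if the knockout is the numerator. The other 6 had log2 fold changes between -0.14 and 0.43 in the authors' deposited table, with adjusted p-values from 0.064 to 0.959. ANXA4 (0.43, SE 0.17, adjusted p 0.064) and ANXA5 (-0.14, SE 0.06, adjusted p 0.0668) were nearest the threshold in the authors' deposited table. ANXA2, with the highest mean normalized count of the family (7479), had 0.09 (SE 0.06, adjusted p 0.275) in the authors' deposited table. In the rRNA-depleted libraries the ratio of its means was 3.24, against a ratio of 1.07 in the poly(A) libraries. The median log2 change of all genes was 0.41 in the former and 0.02 in the latter.

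**Figure D3:**
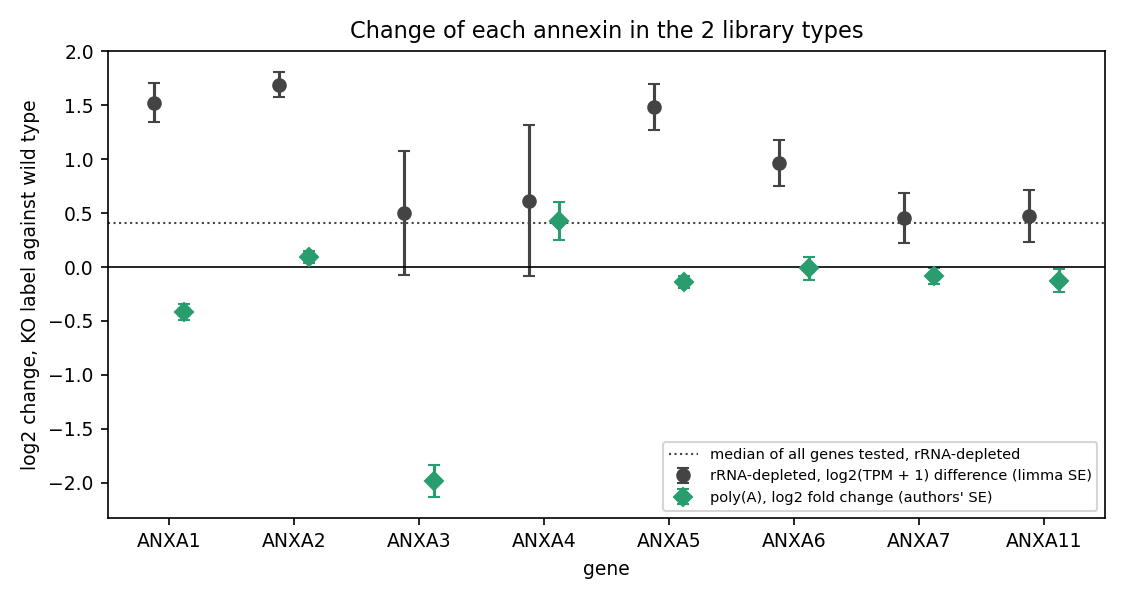
Log2 change of each annexin, knockout label against wild type, in the rRNA-depleted libraries (grey circles, difference of log2(TPM + 1), bars are limma standard errors) and in the authors' deposited poly(A) table (green diamonds, bars are the authors' standard errors); the dotted line is the median of all genes tested in the rRNA-depleted libraries, 0.41. All 8 circles lie above 0 as plotted (those of ANXA3, ANXA4 and ANXA7 fall below it with the GC trend removed), and the diamond of ANXA3 lies lowest at -1.98.

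ANXA2 has a processed pseudogene, ANXA2P2 (ENSG00000231991; chromosome 9, 33624274 to 33625293, plus strand), an intronless copy of its mRNA. The copy aligned to the ANXA2 transcript over 1020 bases with 16 mismatches (98.4% identity), and the longest identical run was 221 bases. A read that lies within an identical run matches both copies. The aligned 60 coding bases with the most differences, bases 215 to 274 of the ANXA2 coding sequence, are shown with the differing bases in capitals.
ANXA2: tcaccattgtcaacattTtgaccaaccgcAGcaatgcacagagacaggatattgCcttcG
ANXA2P2: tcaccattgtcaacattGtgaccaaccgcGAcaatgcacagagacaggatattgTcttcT

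ANXA2P2 was at 27.8, 20.3 and 17.6 TPM in the wild type and at 174, 247 and 171 TPM with the knockout label, on 2 to 4 and 27 to 92 reads per library. The groups did not overlap. The log2 difference was 3.08 (SE 0.24, limma adjusted p 0.0017), and the pooled ratio of reads was 9.46 (95% exact interval 4.87 to 21.03, counting error only). Of the reads assigned to ANXA2 or ANXA2P2, the pseudogene took 1.65%, 1.32% and 1.27% in the wild type and 3.32%, 4.63% and 3.47% with the knockout label. In the authors' deposited table ANXA2P2 was at 0.61 on the log2 scale (SE 0.31, adjusted p 0.155). How the authors assigned reads that match both copies is not given in the sources used here, so values of the pair are uncertain.

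ANXA2R, which encodes a receptor proposed for annexin A2, was chosen after its values were seen. It was at 119, 147 and 143 TPM in the wild type and at 23.9, 23.0 and 21.7 TPM with the knockout label. The groups lay far apart, with a log2 difference of -2.54 (SE 0.15, limma adjusted p 0.0012). The authors' deposited table gave it the same direction, -1.17 on the log2 scale (SE 0.37, adjusted p 0.0124), from a low mean normalized count of 9.96.

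Genes that work with annexins were listed in 4 sets, and the first was the S100 proteins and scaffolds that bind annexins. In the rRNA-depleted libraries 6 of 9 were tested, with 4 rises and 0 falls by limma and a median log2 difference of 1.62, against 22.9% higher, 12.4% lower and a median of 0.41 over all genes. Of 7 genes in the authors' deposited table, 3 fell and 0 rose, with a median of -0.82, against 10.3% lower, 9.55% higher and a median of 0.02 over all genes. S100A10, S100A11 and S100A6 were past the threshold in both types and in opposite directions, as ANXA1 was, on the same reading of the numerator. S100A10, the partner of annexin A2, was at 13.8, 67.1 and 31.0 TPM in the wild type and 287, 259 and 247 TPM with the knockout label. The groups did not overlap, and the wild-type values rest on 3 to 10 reads. The log2 difference of S100A10 was 3.03 (SE 0.63, limma adjusted p 0.0184), against -0.82 (SE 0.10) in the authors' deposited table. S100A11, the partner of annexin A1, had 3.06 (SE 0.31, limma adjusted p 0.0028), on 3 to 5 wild-type reads, and -0.93 (SE 0.12) in the authors' deposited table. S100A6, a partner of annexin A11, had 2.03 (SE 0.19, limma adjusted p 0.0025) and -0.84 (SE 0.12) in the authors' deposited table. S100A10 did not pass without wild-type library 3 (adjusted p 0.0501), and none of the 3 passed without knockout-labelled library 3 (adjusted p 0.0514 to 0.166).

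The second list held receptors of annexin A1 and genes of the plasminogen system that annexin A2 serves. The formyl peptide receptors FPR1, FPR2 and FPR3 had 0 TPM in every rRNA-depleted library. Of 4 genes tested there, 3 rose and 0 fell, with a median log2 difference of 1.65, or 1.49 with 1 gene at 3 reads or fewer in the wild type set to its bound. Over all genes 22.9% were higher and the median was 0.41. Of 6 genes with an adjusted p in the authors' deposited table, 3 rose and 0 fell, with a median of 0.70, against 9.55% higher and a median of 0.02 over all genes. The 3 were the same genes, PLAT, PLAU and PLAUR. PLAU, the urokinase-type plasminogen activator, had a log2 difference of 1.92 (SE 0.23) and 1.82 (SE 0.10) in the authors' deposited table. PLAT, the tissue-type activator, had 2.16 (SE 0.27), or 1.46 with the GC trend removed, and 0.67 (SE 0.09) in the authors' deposited table. PLAUR, the urokinase receptor, had 1.07 (SE 0.26) and 0.57 (SE 0.11) in the authors' deposited table. PLAUR lost the threshold with median ratio scaling (0.72, limma adjusted p 0.0818) and without wild-type library 2 (adjusted p 0.0524) or 3 (adjusted p 0.0678). None of the 3 passed without knockout-labelled library 3 (adjusted p 0.0567 to 0.196).

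The third list held genes of calcium-dependent plasma membrane repair, in which annexins seal wounds. All 14 were tested in the rRNA-depleted libraries, where 5 were higher and 3 lower, with a median log2 difference of 0.33, or 0.38 without 2 genes at 3 reads or fewer under both labels. Both medians lie below the 0.41 of all genes, of which 22.9% were higher and 12.4% lower. Of 12 genes in the authors' deposited table, 4 fell and 0 rose, with a median of -0.09, against 10.3% lower and a median of 0.02 over all genes. DYSF and VPS4B fell in both. DYSF encodes dysferlin, a membrane repair protein, and went from 42.2, 32.1 and 44.3 TPM to 12.8, 15.0 and 12.3 TPM, a log2 difference of -1.51 (SE 0.23). The authors' deposited table gave DYSF -1.31 (SE 0.28). VPS4B, an ATPase that disassembles ESCRT filaments, had -1.16 (SE 0.22) and -0.75 (SE 0.15) in the authors' deposited table. With the GC trend removed the log2 difference of VPS4B was -2.19. The third lower gene, TRIM72, held 3 reads or fewer in each library. Neither DYSF nor VPS4B passed without knockout-labelled library 3 (adjusted p 0.0753 and 0.0766).

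The fourth list held scramblases and flippases, which set whether phosphatidylserine, the ligand of annexin A5, faces outward. In the rRNA-depleted libraries 5 of 9 were higher and 0 lower, with a median log2 difference of 1.17, or 1.11 with 1 gene at 3 reads or fewer in the wild type set to its bound, against 22.9% higher and a median of 0.41 over all genes. Of 10 genes in the authors' deposited table, 3 rose and 0 fell, with a median of 0.11, against 9.55% higher and a median of 0.02 over all genes. PLSCR1, also an interferon-stimulated gene, was the 1 gene of this list past the threshold in both, with 1.87 (SE 0.36) and 1.33 (SE 0.11) in the authors' deposited table. ATP8B1 and TMEM30A, a flippase and the subunit that flippases need, had log2 differences of 1.17 (SE 0.20) and 2.47 (SE 0.61), and 0.14 and 0.08 in the authors' deposited table. With the GC trend removed the log2 differences of PLSCR1, ATP8B1 and TMEM30A were 0.86, 0.39 and 1.36, and none passed the limma threshold (adjusted p 0.15, 0.14 and 0.127). None of the 3 passed without knockout-labelled library 3 either, at log2 differences of 1.84, 1.26 and 2.79, and TMEM30A also not without wild-type library 1 (adjusted p 0.0747).

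**Figure D4:**
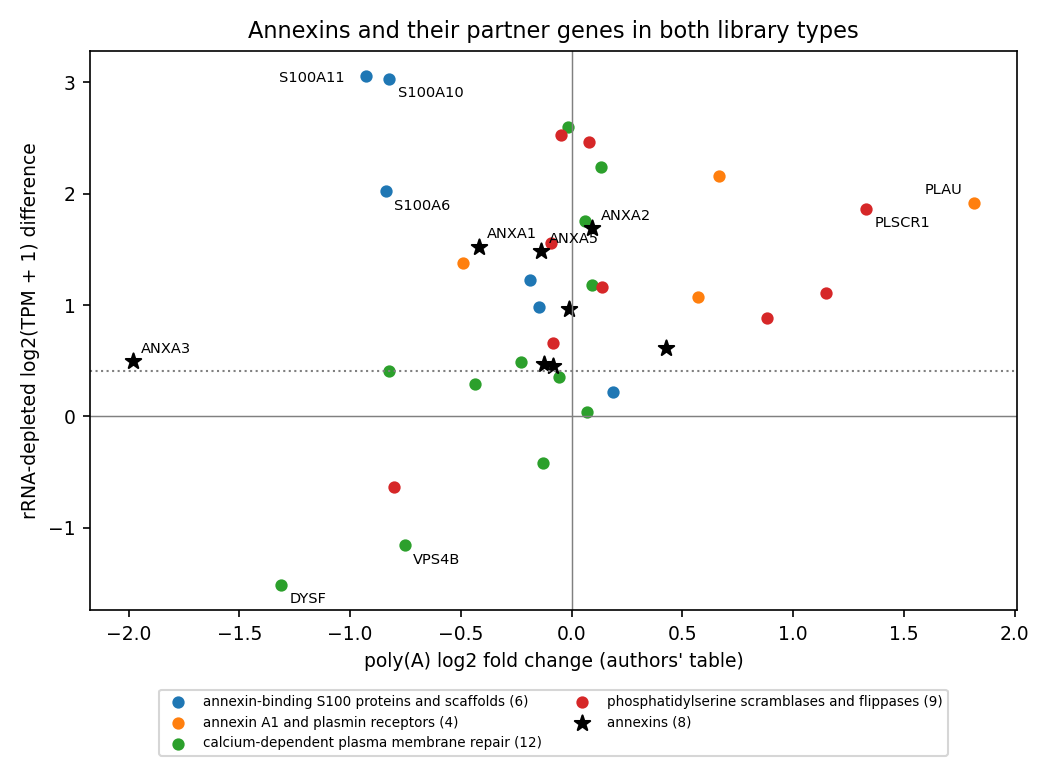
Log2 change of the annexins (stars) and of the genes of the 4 neighbour lists (coloured points) in the poly(A) libraries (x axis, authors' deposited table) against the rRNA-depleted libraries (y axis, difference of log2(TPM + 1)), for genes with values in both; the dotted line is the rRNA-depleted median of all genes, 0.41. S100A10, S100A11 and S100A6 lie at the upper left with ANXA1, and DYSF and VPS4B at the lower left.

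Change in the rRNA-depleted libraries moved with the GC content of transcripts. The median log2 difference of all genes was 1.15 among genes of up to 41.0% GC and -0.24 among genes above 57.8%. The longest transcripts of ANXA4, ANXA1, ANXA3, ANXA7, ANXA2 and ANXA5 had 38.9% to 46.3% GC, and those of ANXA11 and ANXA6 had 52.3% and 56.0%. ANXA1, ANXA2, ANXA5, ANXA6 and ANXA11 lay above the median of their GC range, and ANXA3, ANXA4 and ANXA7 lay below theirs. With the trend removed the log2 differences of ANXA3, ANXA4 and ANXA7 were below 0, at -0.48, -0.43 and -0.39, none past the threshold. The same step moved the median of all genes from 0.41 to 0.04. It thus took out a shift shared by all genes as well as the slope with GC content. The part of GC content in these results was not tested further.

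**Figure D5:**
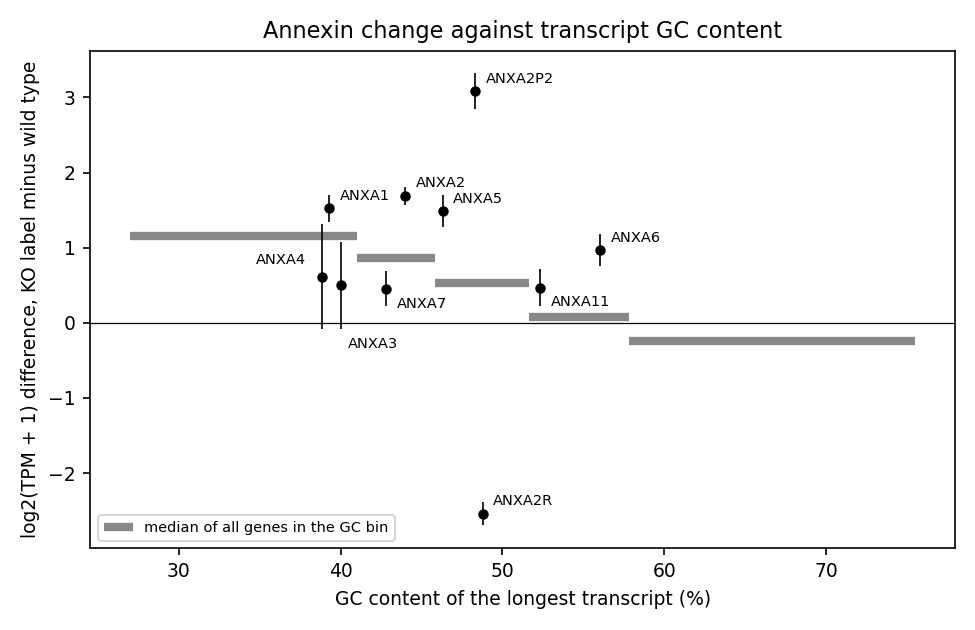
Difference of log2(TPM + 1), knockout label minus wild type, against the GC content in percent of the longest transcript, for the 8 annexins, ANXA2P2 and ANXA2R (black points, bars are limma standard errors); grey bars are the medians of all genes in each of 5 ranges of GC content. The grey bars go from 1.15 down to -0.24, and ANXA2R lies at -2.54, far below the bar of its GC range.

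The genes whose pattern over the 6 rRNA-depleted libraries was most like that of ANXA3, by root mean square difference in log2(TPM + 1) centred on each gene, were ZC3H10 (0.079), EDEM2 (0.13), CLEC16A (0.137), GPATCH1 (0.192) and ALG12 (0.194), among 12113 genes with a symbol and a mean of at least 5 TPM. With 1 to 9 reads of ANXA3 per library, counting error in that gene limits this order.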

How the data were processed

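Total RNA of HMC3 cells was sequenced as 10 poly(A) and 6 rRNA-depleted libraries, assigned to groups from their titles. The submitters' processing notes name Trimmomatic, STAR, DESeq2 and hg38; counting tool, annotation and use of strand are not given in the sources used here. For poly(A) RNA the authors deposited 1 comparison, with columns for the mean normalized count over libraries (a signal), log2 fold change and SE, Wald score, and raw and adjusted p-value, per the file headers. For rRNA-depleted RNA the authors deposited TPM.

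Reads were recovered from TPM with GENCODE 29 exon-union lengths (90.9% of values above 0 whole to within 0.02 reads). On log2(TPM + 1), limma 3.58.1 (R 4.3.3, eBayes with trend, genotype as the term) was run for genes reaching 1 TPM in 3 or more libraries, with Benjamini-Hochberg adjustment at 0.05 over all of them. Intervals are at 95% and cover counting error only where said. The step was tested on simulated reads with no built-in GC trend or shift shared by all genes. That test therefore does not cover these features of the data. Alternatives included another pseudocount, filter or scaling, removal of the trend with GC content, limma-voom on recovered reads with library totals, and leaving out each library; figures used matplotlib 3.10.9.

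Members and lists were chosen with earlier results of these data known. The text names the 8 members, METTL3, other annexin genes and ANXA2 pseudogenes, in each list the genes past 0.05 in both library types or, with fewer than 2, those with the highest mean TPM too, and the 5 genes most like ANXA3. ANXA2R and TRIM72 are outside this rule. Among the listed genes and markers, 2 are not reported here and enter no list count.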

Additional observations from a re-analysis of the deposited data

How the results depend on the processing

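The count of annexins higher under the knockout label in the rRNA-depleted libraries was 4, and it was 3 or 4 under the alternatives other than leaving out a library; leaving out each library in turn gave 1 to 5, the 1 without knockout-labelled library 3 and the 5 without wild-type library 3. No annexin was lower past the limma threshold under any alternative run. Of 2 poly(A) calls, both lower, 1 was of size 1 or more on the log2 scale in the authors' deposited table. The log2 ratio of summed annexin TPM was 1.33, 0.97 with median ratio scaling, 1.15 without ANXA2, and 1.29 to 1.40 when each library was left out. Signs turned for ANXA3 (-0.48 with the GC trend removed, -0.16 with voom), ANXA4 (-0.43), ANXA7 (-0.39) and METTL3 (-0.37, these 3 with the GC trend removed), none past the threshold; the cause was not tested. Calls over all genes were 5220, 1663 without knockout-labelled library 3. Replicate numbers did not pair the libraries (correlations of same-numbered libraries' deviations -0.02 to 0.02), and with the 6 libraries separate and the replicate number as a block 4 annexins were higher and 0 lower, with 6037 calls over all genes against 6880 without the block. Of the named single genes' alternatives, 299 kept direction and side of the threshold, 24 lost it and 2 gained it. Depth limits ANXA3 and ANXA4 most, with 1 to 9 and 4 to 28 reads per library.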
